A study of Pseudotaxus chienii and Amentotaxus argotaenia and Torreya grandis with 9 samples.

Results

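Transcripts that were abundant in twigs of Torreya grandis and scarce in twigs of its relatives Pseudotaxus chienii and Amentotaxus argotaenia were followed through RNA-seq libraries of these 3 trees of the yew family. The transcripts were counted as components of a Trinity assembly. Trinity joins short reads into contigs without a genome, and a component is the set of gene-level features whose names differ only in the final gene number. Members were chosen by their measured species means: a mean of at least 100 TPM in T. grandis, with means in P. chienii and in A. argotaenia that were each under 2% of it. Of 42956 components, 69 met these conditions, and they hold 162 of the 88609 features. TPM is a level per transcript length that sums to the same amount in every library, so levels of different components can be set side by side.

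T. grandis, the Chinese torreya, is an evergreen conifer grown for its edible seeds, and it is labelled here as not producing taxol, the anticancer diterpenoid of yews. P. chienii carries the label of a taxol producer, and A. argotaenia that of a non-producer. For every species 3 libraries were made from fresh twigs with their wood and needles, taken from plants aged 3 years kept at 25 °C with 12 h of light and 12 h of dark. No other treatment is given. Whether each library stands for its own tree is not stated. P-values then measure only the spread between these libraries, which may be technical. The design compared the taxol producer with the non-producers, but T. grandis shares its label with A. argotaenia, and species cannot be told apart from any other difference between the plants. A conifer twig is a mixture of wood, bark and vascular cells with photosynthetic needle cells, so fewer cells of a type and less RNA per cell cannot be told apart in these bulk libraries. The feature names are not paired with gene names in the files, so no function is given to any component, and the tissue could not be checked with marker genes.

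Over all components, Pearson's r on log2(TPM + 1) between libraries of a species lay between 0.894 and 0.965. T. grandis replicate 3, P. chienii replicate 1 and A. argotaenia replicate 2 each had the lowest correlations of their species. The depth of each library is unknown since TPM holds no counts, and counting intervals could not be given.

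Membership rested on the values themselves, so the height of the members in T. grandis and their lowness elsewhere are a description without a test. The component closest above the level limit was TRINITY_DN51462_c1 with a T. grandis mean of 102 TPM, and TRINITY_DN20866_c0 lay closest below it at 97.4 TPM. The next on either side were TRINITY_DN40520_c0 at 111 TPM and TRINITY_DN52430_c0 at 113 TPM, and TRINITY_DN4606_c0 at 96.8 TPM and TRINITY_DN53502_c0 at 94.1 TPM. On the other limit, TRINITY_DN41664_c0 reached 1.98% of its T. grandis mean in P. chienii. TRINITY_DN34447_c0 reached 1.92% and TRINITY_DN40990_c0 1.82%, both in A. argotaenia. Just outside were TRINITY_DN39896_c0 with 2.01%, TRINITY_DN35774_c0 with 2.38% and TRINITY_DN46831_c0 with 2.54% in the higher of the other species. Components of at least 100 TPM numbered 1611 in T. grandis, and 4.28% of them were members. The same conditions with the species exchanged were met by 161 components in P. chienii, 10.2% of its abundant ones, and by 50 in A. argotaenia, 3.38% of its own.

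The 69 members together held 3.49% ± 0.278 of the TPM of a T. grandis library, against 0.0140% ± 0.00778 in P. chienii and 0.0233% ± 0.00640 in A. argotaenia (SD, n = 3 each). Their T. grandis means spread widely, with a median of 253 TPM. Of these, 8 members had means of at least 1000 TPM, 5 lay between 500 and 1000 TPM, 34 between 200 and 500 TPM and 22 between 100 and 200 TPM. The 4 highest made up 34.9% of the summed level and the 12 highest 58.7%. Among all components of T. grandis, 4 members ranked in the first 50 and 9 in the first 100.

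**Figure D1:**
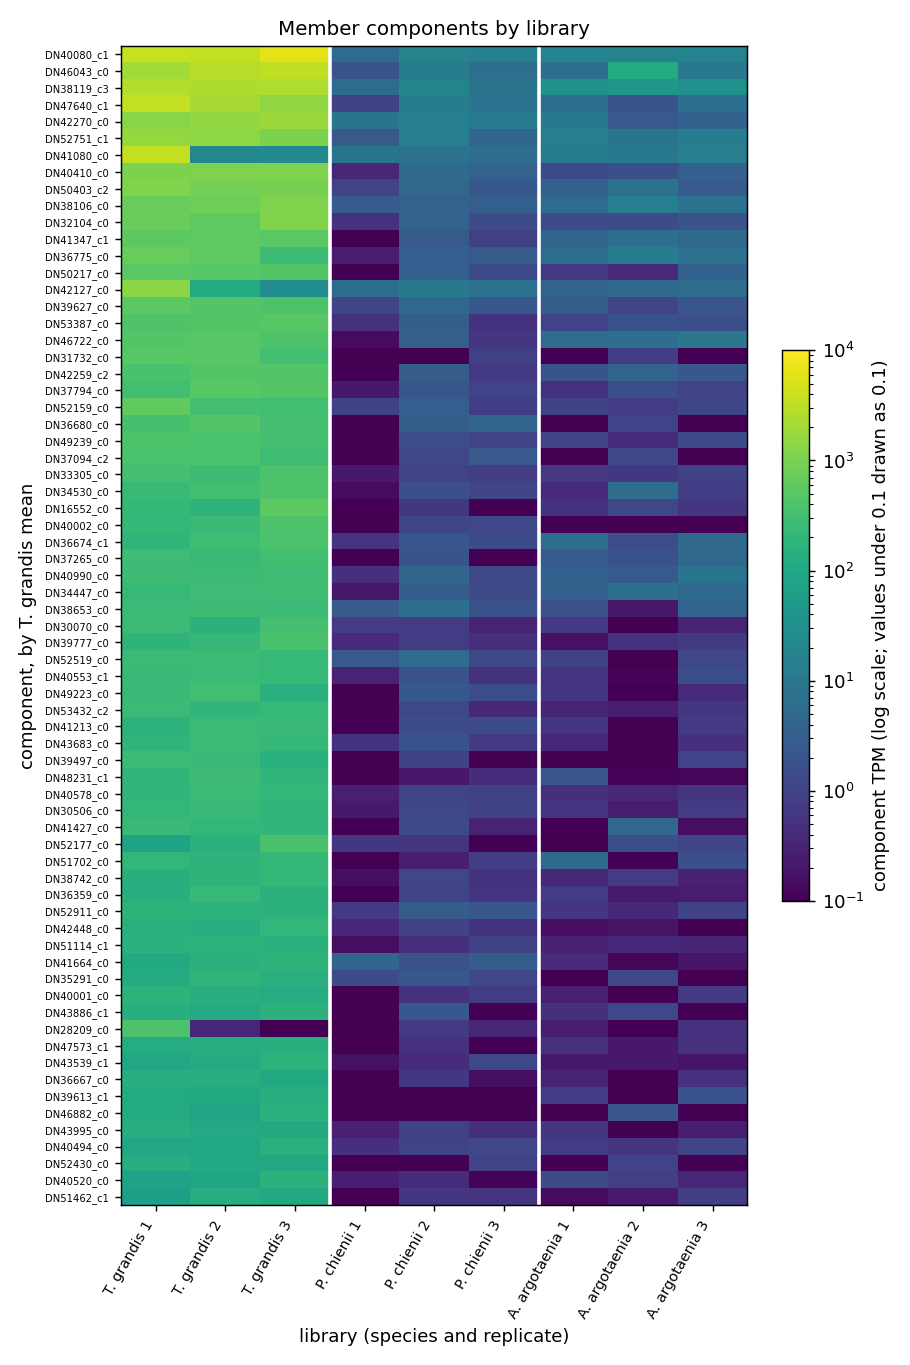
Level of each of the 69 member components (rows, ordered by T. grandis mean) in each of the 9 libraries (columns), as component TPM on a log colour scale. The T. grandis columns are bright in nearly every row, while TRINITY_DN41080_c0, TRINITY_DN42127_c0 and TRINITY_DN28209_c0 are bright in replicate 1 and much darker in replicates 2 and 3.

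The highest member was TRINITY_DN40080_c1, a component of 7 features, which stood at 3873, 3538 and 6159 TPM in T. grandis, against 5.57, 17.3 and 15.2 TPM in P. chienii and 17.9, 17.2 and 18.1 TPM in A. argotaenia. Its lowest T. grandis library was far above every library of the other species, and replicate 3 was the highest of the 3. TRINITY_DN46043_c0 stood at 1991, 2842 and 3271 TPM in T. grandis, against 1.87, 12.3 and 7.12 TPM in P. chienii and 6.97, 114 and 10.3 TPM in A. argotaenia. Here a single A. argotaenia library, replicate 2, lay far above the other 5 libraries outside T. grandis. TRINITY_DN38119_c3 was at 2692, 2449.7 and 2534 TPM in T. grandis, against 5.62, 17.9 and 8.27 TPM in P. chienii and 36.6, 43.6 and 32.9 TPM in A. argotaenia. Its T. grandis libraries were nearly level, and all A. argotaenia libraries lay above all P. chienii libraries.

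TRINITY_DN47640_c1 stood at 3553, 2225 and 1457 TPM in T. grandis, against 0.92, 13.3 and 7.95 TPM in P. chienii and 6.59, 1.98 and 6.61 TPM in A. argotaenia. It has 1 feature only, and its T. grandis level was highest in replicate 1 and lowest in replicate 3. TRINITY_DN42270_c0, which had the most features of any member, was at 1304, 1525 and 1763 TPM in T. grandis, against 8.61, 14.4 and 11.6 TPM in P. chienii and 10.7, 2.44 and 3.52 TPM in A. argotaenia. TRINITY_DN52751_c1, again a single feature, was at 1588, 1412 and 1030.2 TPM in T. grandis, against 2.48, 14.2 and 4.23 TPM in P. chienii and 14.1, 8.84 and 12.9 TPM in A. argotaenia. In both the T. grandis libraries lay within 2-fold of each other.

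TRINITY_DN40410_c0 was among the steadiest of the high members, at 1019, 1099 and 1082 TPM in T. grandis, against 0.34, 5.07 and 3.81 TPM in P. chienii and 1.28, 1.7 and 3.42 TPM in A. argotaenia. TRINITY_DN50403_c2 was at 1106, 892 and 959 TPM in T. grandis, against 1.06, 4.5 and 2.27 TPM in P. chienii and 3.53, 7.33 and 2.73 TPM in A. argotaenia. TRINITY_DN38106_c0 was at 729, 806 and 1076 TPM in T. grandis, against 2.86, 3.71 and 3.26 TPM in P. chienii and 5.63, 14.3 and 7.42 TPM in A. argotaenia, with A. argotaenia above P. chienii throughout. TRINITY_DN32104_c0 and TRINITY_DN41347_c1 closed the 12 highest, with T. grandis means of 801 ± 283 TPM and 552 ± 36.1 TPM (SD, n = 3). The other member of the 12, TRINITY_DN41080_c0, behaved differently and is described next.

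In a set of 3 members T. grandis replicate 1 was over 10 times both other T. grandis libraries. TRINITY_DN41080_c0 stood at 3409, 21.4 and 24.6 TPM in T. grandis, against 8.7, 7.83 and 6.14 TPM in P. chienii and 12.3, 10.3 and 13.8 TPM in A. argotaenia. Replicate 1 alone carried the component past the limit, and replicates 2 and 3 were less than 2-fold above the highest A. argotaenia library. TRINITY_DN42127_c0 stood at 1338, 112 and 26.7 TPM in T. grandis, against 6.26, 10.7 and 7.55 TPM in P. chienii and 3.69, 5.15 and 6.11 TPM in A. argotaenia. TRINITY_DN28209_c0 stood at 397, 0.36 and 0 TPM in T. grandis, against 0, 0.72 and 0.35 TPM in P. chienii and 0.24, 0 and 0.52 TPM in A. argotaenia, so that outside replicate 1 the T. grandis libraries lay within the range of the other species. In TRINITY_DN42127_c0 replicate 2 was over 10 times the highest library of the other species and replicate 3 over 2 times.

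In the other 66 members the lowest T. grandis library was at least 10 times the highest library of the other species, and in 52 it was at least 50 times that library. The sums over all 69 were 37550.4 TPM in T. grandis replicate 1, 32011 TPM in replicate 2 and 35226 TPM in replicate 3. Without the 3 components above, they were 32407, 31877 and 35175 TPM.

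Within these 3 components the leading feature carried the high replicate 1 value. TRINITY_DN41080_c0_g4 stood at 3381, 3.71 and 0 TPM in T. grandis, against 0, 6.26 and 2.86 TPM in P. chienii and 2.77, 0 and 3.58 TPM in A. argotaenia. Its neighbour TRINITY_DN41080_c0_g1 was at 25.1, 14 and 20.5 TPM in T. grandis, against 8.7, 1.57 and 3.28 TPM in P. chienii and 9.55, 10.3 and 10.2 TPM in A. argotaenia, without a high library. TRINITY_DN42127_c0_g2 stood at 1322, 93.2 and 10.2 TPM in T. grandis, while TRINITY_DN42127_c0_g1 was level over these libraries at 15.7, 19.2 and 16.5 TPM in T. grandis. In TRINITY_DN28209_c0 both features followed replicate 1, with TRINITY_DN28209_c0_g1 at 374, 0.35 and 0 TPM in T. grandis and TRINITY_DN28209_c0_g2 at 22.7, 0.01 and 0 TPM in T. grandis. Among the 1542 other components of at least 100 TPM in T. grandis, 1 was over 10 times higher in replicate 1 than in both other libraries, 0 in replicate 2 and 2 in replicate 3.

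**Figure D2:**
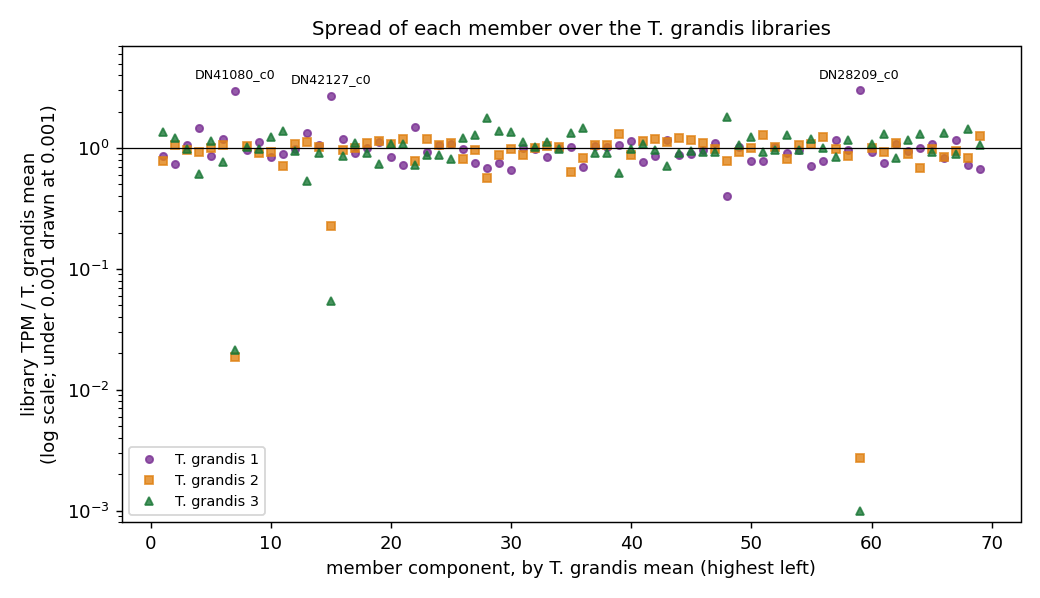
Level of each member in each T. grandis library divided by its T. grandis mean (vertical axis, log scale), with members ordered by their mean from left to right. Most points lie near 1, and replicates 2 and 3 fall far below it in the 3 named components.

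The selection did not use the spread over the T. grandis libraries, but it used their mean, which a single high library can raise. The spread of the members is thus not independent of the selection, and the 1542 others did not meet the 2% limit. The coefficient of variation, which is the SD over the mean of the 3 libraries, had a median of 19.05% over the 69 members and of 10.99% over the 1542 others. Without the 3 components that were highest in replicate 1 by over 10 times the median was 16.8%. Under 10% lay 17 members, or 24.6%, against 45.01% of the others, and over 50% lay 5 members, or 7.25%, against 2.08%. These figures describe the lists and carry no test. The highest and lowest library were within 2-fold of each other in 57 members, or 82.6%, and in 95.01% of the others. The highest T. grandis library was replicate 3 for 28 members, replicate 2 for 23 and replicate 1 for 18.

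The steadiest members were TRINITY_DN38653_c0, TRINITY_DN40990_c0 and TRINITY_DN52911_c0, with coefficients of variation of 1.85%, 2.23% and 3.89%. TRINITY_DN38653_c0 was at 256, 263 and 254 TPM in T. grandis, against 2.78, 6.76 and 1.89 TPM in P. chienii and 1.71, 0.22 and 4.05 TPM in A. argotaenia, and TRINITY_DN52911_c0 was at 173, 173 and 161 TPM in T. grandis, against 0.71, 2.89 and 2.26 TPM in P. chienii and 0.61, 0.38 and 0.94 TPM in A. argotaenia. At the other end stood TRINITY_DN28209_c0 with 173%, TRINITY_DN41080_c0 with 169.7% and TRINITY_DN42127_c0 with 149%.

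The members had fewer features than the other abundant T. grandis components, with a median of 2 against 3. A single feature made up 33 members, or 47.8%, against 14.1% of the other abundant T. grandis components and 55.3% of all components. These shares were not tested. In the 36 members with several features, the leading feature held a median of 86.03% of the T. grandis level, against 95.4% in the others with several features. It held over 90% in 15 of the 36 members and under 60% in 7.

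A second abundant feature was most marked in TRINITY_DN46043_c0. Its feature TRINITY_DN46043_c0_g1 stood at 1319, 1616 and 1571 TPM in T. grandis, against 0.99, 7.63 and 4.47 TPM in P. chienii and 4.91, 110.0 and 7.69 TPM in A. argotaenia. The second, TRINITY_DN46043_c0_g2, stood at 672, 1226 and 1700.0 TPM in T. grandis, against 0.88, 4.67 and 2.65 TPM in P. chienii and 2.06, 3.78 and 2.66 TPM in A. argotaenia. The T. grandis libraries differed more at the second feature than at the first, and the high A. argotaenia replicate 2 value belonged to the first alone. In TRINITY_DN50403_c2 the leading feature was at 571 ± 76.7 TPM and the second at 330.4 ± 30.4 TPM in T. grandis (SD, n = 3). TRINITY_DN40990_c0 was shared almost evenly, with TRINITY_DN40990_c0_g2 at 142 ± 15.8 TPM and TRINITY_DN40990_c0_g3 at 133 ± 9.98 TPM (SD, n = 3). In TRINITY_DN38106_c0 the second feature reached 103 ± 22.9 TPM beside a leading one at 709 ± 162 TPM (SD, n = 3).

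Low levels in the other species did not always come from the feature that led in T. grandis. Of the 162 features, 148 had their highest species mean in T. grandis, 3 in P. chienii and 11 in A. argotaenia. The 14 outside T. grandis fell in 7 members. Where a member had several features and at least 1 TPM in A. argotaenia, the leading feature there was the T. grandis one in 8 of 19 cases, against 70.4% of other abundant components. In P. chienii it was the T. grandis one in 15 of 20, against 49.8% of the others. Leading features of so low a level rest on a few TPM, and these shares were not tested.

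In TRINITY_DN40080_c1, the feature that led in T. grandis, TRINITY_DN40080_c1_g6, was at 3838, 3505 and 6088 TPM in T. grandis, against 3.27, 16.7 and 9.9 TPM in P. chienii and 8.03, 6.72 and 9.33 TPM in A. argotaenia. A. argotaenia also had TRINITY_DN40080_c1_g7, at 0.10, 0.11 and 0.03 TPM in T. grandis, against 0.13, 0.11 and 0.36 TPM in P. chienii and 9.27, 10.4 and 8.12 TPM in A. argotaenia. That feature was above every library of the other species in each A. argotaenia library. TRINITY_DN38119_c3 held several such features, of which TRINITY_DN38119_c3_g3 was the highest in A. argotaenia, at 0, 0.22 and 2.42 TPM in T. grandis, against 0.45, 0.39 and 0 TPM in P. chienii and 9.65, 10.1 and 15.6 TPM in A. argotaenia. Its leading T. grandis feature, TRINITY_DN38119_c3_g2, averaged 2509 ± 129 TPM in T. grandis, against 7.15 ± 5.21 TPM for P. chienii and 5.02 ± 1.75 TPM for A. argotaenia (SD, n = 3 each). TRINITY_DN42270_c0 was the case for P. chienii, where TRINITY_DN42270_c0_g7 stood at 0, 0.03 and 0.07 TPM in T. grandis, against 7.39, 5.37 and 7.57 TPM in P. chienii and 0, 0 and 0 TPM in A. argotaenia. All 3 A. argotaenia libraries listed that feature at 0. In TRINITY_DN41080_c0, TRINITY_DN41080_c0_g1 led in both other species, with means of 4.52 TPM for P. chienii and 10.02 TPM for A. argotaenia.

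Every member was listed above 0 in at least 1 library of the other species, so none was found in T. grandis alone in the strict sense. Above 0 in all 6 of these libraries were 40 members. TRINITY_DN39613_c1 and TRINITY_DN46882_c0 were listed at 0 in all P. chienii libraries and TRINITY_DN40002_c0 in all A. argotaenia libraries, and these 3 are named after their values were seen. The species means had medians of 0.308% of the T. grandis mean in P. chienii and 0.313% in A. argotaenia, and the upper limit of 2% was set by the selection. Under 0.5% lay 52 members in P. chienii and 47 in A. argotaenia. At 1% or more lay 6 members in P. chienii and 12 in A. argotaenia, and 1 in both.

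The libraries of a species differed in this respect. The median level of the members was 0.0666% of the T. grandis mean in P. chienii replicate 1, 0.565% in replicate 2 and 0.326% in replicate 3. It was 0.261%, 0.223% and 0.323% in A. argotaenia replicates 1, 2 and 3. In TPM these medians were 0.22, 1.73 and 0.98 in P. chienii and 0.68, 0.85 and 0.94 in A. argotaenia. Replicate 1 of P. chienii listed 22 members at 0, against 4 and 7 in its replicates 2 and 3. Replicate 2 was the highest P. chienii library for 53 members. The P. chienii libraries stood in the same order over all features, of which 38038, 42788 and 40919 reached 1 TPM in replicates 1, 2 and 3. In A. argotaenia replicate 3 was the highest for 30 members, replicate 2 for 25 and replicate 1 for 13.

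Members that were higher in T. grandis were also higher in most of these libraries. Spearman's rho across the 69 members between the T. grandis mean and the level in a library was 0.408, 0.777 and 0.629 in P. chienii replicates 1, 2 and 3. In A. argotaenia replicates 1, 2 and 3 it was 0.624, 0.649 and 0.673. This is a description across components, which share libraries and the upper limit of the selection, and no p is given.

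**Figure D3:**
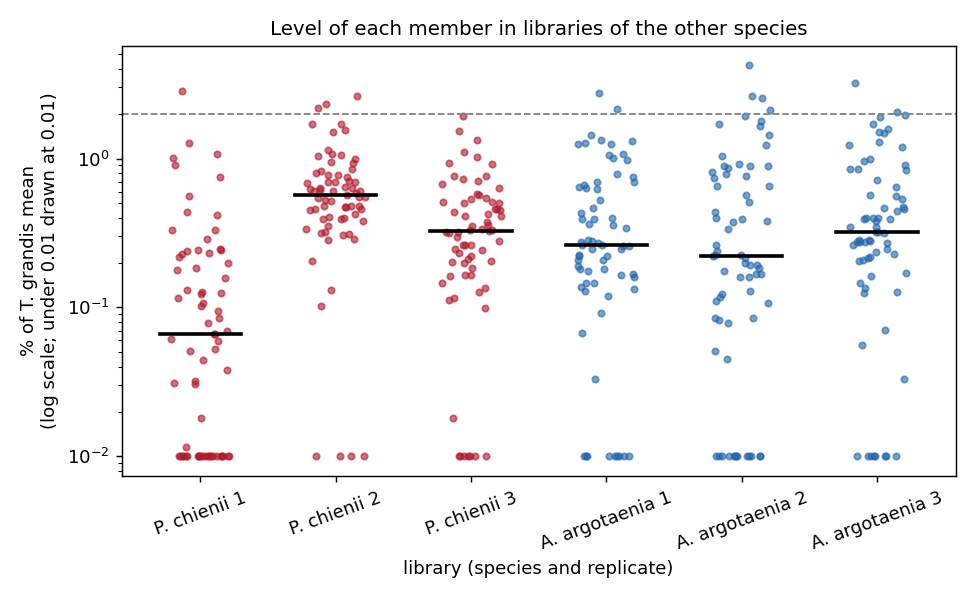
Level of each of the 69 members in each P. chienii and A. argotaenia library as a percent of its T. grandis mean (log scale), with black bars at the medians and a dashed line at the 2% limit that the selection put on the species means. The median is lowest in P. chienii replicate 1 at 0.0666% and highest in P. chienii replicate 2 at 0.565%.

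The selection did not use the difference between P. chienii and A. argotaenia, and this difference was tested with limma over all components on log2(TPM + 1). The call required a change of 2-fold or more with adjusted p below 0.05, and positive changes are higher in P. chienii. Of the 69 members, 68 passed the filter of 1 TPM or more in 3 libraries and TRINITY_DN28209_c0 did not. In the 6 libraries compared, 33 members reached 1 TPM at least 3 times, and the others passed through their T. grandis level. Changed were 10 of the 68 members, or 14.7%, against 53.7% of all 39423 components tested. With the filter set on the 6 libraries compared, the same test called 10 of 33 members, or 30.3%, against 59.8% of 35104 components. Of the 68, 3 or 4.41% were higher in P. chienii, against a background of 25.7%, and 7 or 10.3% were lower, against 28.1%. Without the 3 libraries of lowest correlation named above, 13 of the 68 members were called, 6 higher and 7 lower. Of all 39423 components, 21549 were called in that setting, 10110 higher and 11439 lower. Since the selection holds both species under 2% of T. grandis, a lower share of calls says nothing further about the members. The median log2 fold change was 0.01 over the tested members and 0 over all components, and with the filter on the 6 libraries it was -0.24 over the 33 members and 0.05 over all.

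TRINITY_DN46722_c0, a single feature, fell the most, with 0.14, 3.2 and 0.62 TPM in P. chienii, against 5.89, 6.65 and 9.45 TPM in A. argotaenia. The libraries did not overlap, and the component had a difference of -2.05 on the log2 scale with an SE of 0.43 (limma, adjusted p = 0.00261). TRINITY_DN38119_c3 was at 10.6 ± 6.48 TPM for P. chienii, against 37.7 ± 5.4 TPM for A. argotaenia (SD, n = 3 each), a difference of -1.87 on the log2 scale with an SE of 0.33 (limma, adjusted p = 0.00104). Its leading T. grandis feature, TRINITY_DN38119_c3_g2, was not lower in P. chienii, at 7.15 ± 5.21 TPM, against 5.02 ± 1.75 TPM in A. argotaenia (SD, n = 3 each). TRINITY_DN36775_c0 was at 0.26, 3.12 and 2.55 TPM in P. chienii, against 6.33, 13.3 and 7.59 TPM in A. argotaenia, a difference of -1.87 on the log2 scale with an SE of 0.52 (limma, adjusted p = 0.012). All 3 A. argotaenia libraries lay above all P. chienii libraries in these components.

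TRINITY_DN41347_c1 also fell, at 0, 2.62 and 0.90 TPM in P. chienii, against 4.32, 6.77 and 5.45 TPM in A. argotaenia, a difference of -1.76 on the log2 scale with an SE of 0.40 (limma, adjusted p = 0.0045). Its A. argotaenia level sat mostly in TRINITY_DN41347_c1_g4, at 3.68, 6.57 and 3.94 TPM in A. argotaenia, a feature that was listed at 0 in every P. chienii library. The other 3 members that fell were TRINITY_DN34447_c0, TRINITY_DN37265_c0 and TRINITY_DN38106_c0, with log2 fold changes of -1.40, -1.40 and -1.16. They are named because they complete the 7. The A. argotaenia level of TRINITY_DN34447_c0 was mainly TRINITY_DN34447_c0_g4, with a mean of 4.67 TPM. In TRINITY_DN38106_c0 it was mainly TRINITY_DN38106_c0_g7 and TRINITY_DN38106_c0_g3, with means of 3.98 and 3.28 TPM. In both, the leading T. grandis feature did not fall. Its mean was 1.23 and 2.84 TPM for P. chienii, and 0.40 and 1.45 TPM for A. argotaenia. That of TRINITY_DN37265_c0 fell with its component, with means of 0.43 and 2.89 TPM in the same order. As whole components, the species overlapped at TRINITY_DN37265_c0 and not at the other 6. The share of all components without overlap was not counted, so this separation adds nothing to the calls. The call of TRINITY_DN34447_c0 was lost without A. argotaenia replicate 2 (adjusted p = 0.0532, limma), and without P. chienii replicate 1 its change was under 2-fold, at -0.95. TRINITY_DN38106_c0 changed by less than 2-fold, at -0.81, without A. argotaenia replicate 2. TRINITY_DN37265_c0 was not called without P. chienii replicate 1 or 3 or A. argotaenia replicate 3, with adjusted p from 0.0709 to 0.0748 by limma. Without the T. grandis libraries in the fit, TRINITY_DN34447_c0 and TRINITY_DN37265_c0 were not called (limma, adjusted p = 0.0617 and 0.0672).

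The test found 3 members higher in P. chienii. TRINITY_DN41664_c0 stood at 4.32, 1.73 and 2.93 TPM in P. chienii, against 0.39, 0.12 and 0.19 TPM in A. argotaenia, without overlap and with a difference of 1.65 on the log2 scale with an SE of 0.29 (limma, adjusted p = 0.00101). TRINITY_DN52519_c0 was at 2.46, 5.68 and 1.23 TPM in P. chienii, against 0.98, 0 and 1.16 TPM in A. argotaenia, a difference of 1.20 on the log2 scale with an SE of 0.42 (limma, adjusted p = 0.036). TRINITY_DN42270_c0 was at 8.61, 14.4 and 11.6 TPM in P. chienii, against 10.7, 2.44 and 3.52 TPM in A. argotaenia, with overlap and a difference of 1.12 on the log2 scale with an SE of 0.42 (limma, adjusted p = 0.0434). Of these only TRINITY_DN41664_c0 kept its call whichever single library was left out. The T. grandis libraries enter this comparison through the shared estimate of the spread. They also raise the mean level from which limma takes the expected spread of a member. With only the libraries of P. chienii and A. argotaenia in the fit, 6 members were called, 1 of them higher in P. chienii. The call of TRINITY_DN52519_c0 was lost without P. chienii replicate 1 or 2, A. argotaenia replicate 1 or 2, or any T. grandis library. TRINITY_DN42270_c0 lost its call without any P. chienii or T. grandis library and without A. argotaenia replicate 2 or 3. For P. chienii TRINITY_DN52519_c0 was mostly TRINITY_DN52519_c0_g1, which held 1.30% of its T. grandis level. Its leading T. grandis feature was at 0, 3.33 and 0 TPM there, overlapping the A. argotaenia values of 0.98, 0 and 1.16 TPM. TRINITY_DN42270_c0 was mostly TRINITY_DN42270_c0_g7 there, and its leading feature overlapped (P. chienii mean 3.90 TPM, A. argotaenia 2.44 TPM). In TRINITY_DN41664_c0 the leading feature was itself higher, without overlap (2.94 against 0.19 TPM). The 58 tested members that did not pass had log2 fold changes from -1.69 to 1.13, with a median SE of 0.37. Among them TRINITY_DN35291_c0, named after its values were seen, missed only the 2-fold limit, with 0.93 on the log2 scale (limma, adjusted p = 0.0369). TRINITY_DN46043_c0 gave the -1.69, through its 113.8 TPM in A. argotaenia replicate 2.

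**Figure D4:**
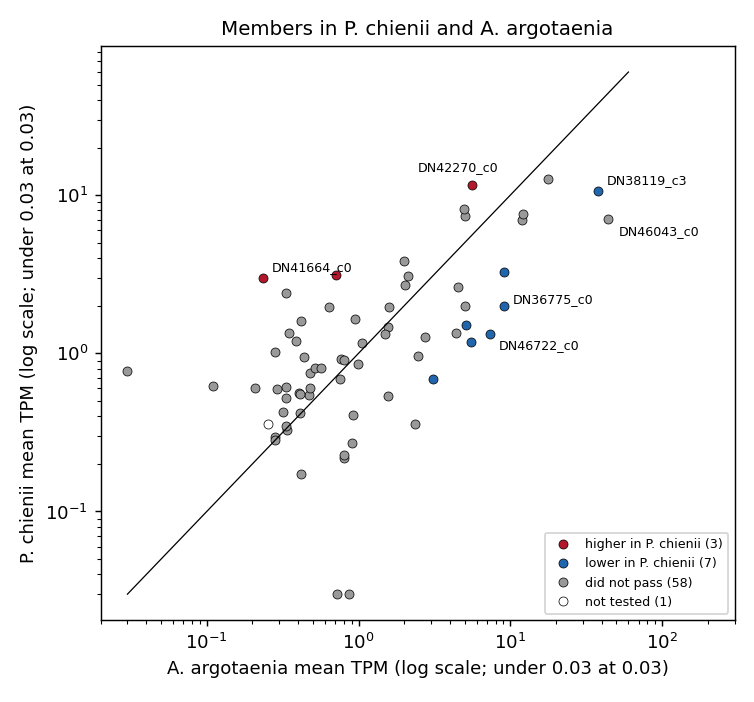
Mean level of each member in P. chienii (vertical axis) and A. argotaenia (horizontal axis), both in TPM on log scales, with the line of equal levels. The 3 red points are higher and the 7 blue points lower in P. chienii by limma, and the 58 grey points did not pass.

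The names of Trinity components carry a DN number that several components can share, and the selection used each component by itself. At least 1 other component with the same DN number was listed for 40 of the 69 members, or 57.97%, against 23.4% of the other abundant T. grandis components. There were 54 such components and none of them was a member. Their highest species mean was in T. grandis in 28 cases, in P. chienii in 15 and in A. argotaenia in 11. At 100 TPM or more in a species stood 18 of them, beside 18 different members, and 14 of the 18 had at least 10 TPM in all 3 species. No sequences were compared, so what a shared DN number means for any pair was not tested.

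In TRINITY_DN47640 different species led in the 2 components. The member TRINITY_DN47640_c1 was at 2412 ± 1060.1 TPM in T. grandis, against 7.39 ± 6.21 TPM for P. chienii and 5.06 ± 2.67 TPM for A. argotaenia (SD, n = 3 each). TRINITY_DN47640_c0 was at 2.64, 0.98 and 0.99 TPM in T. grandis, against 1353, 1557 and 2253 TPM in P. chienii and 1.61, 2.08 and 2.95 TPM in A. argotaenia. Each component thus had 1 species far above the other two, and a different species in each. TRINITY_DN40080 was alike in kind and less even in level, since TRINITY_DN40080_c0 was at 0.56, 0.35 and 0.55 TPM in T. grandis, against 191, 183 and 181 TPM in P. chienii and 10.4, 29.5 and 18.8 TPM in A. argotaenia. TRINITY_DN39777_c1 also stood high in P. chienii, at 0.16, 0.77 and 0.39 TPM in T. grandis, against 104, 199 and 150.4 TPM in P. chienii and 0.47, 0.33 and 0.38 TPM in A. argotaenia, beside the member TRINITY_DN39777_c0 at 252 ± 103 TPM in T. grandis (SD, n = 3). The last pair is named after its values were seen.

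TRINITY_DN49223 held the most abundant partner. The member TRINITY_DN49223_c0 stood at 248, 308 and 147 TPM in T. grandis, against 0, 2.43 and 1.58 TPM in P. chienii and 0.65, 0 and 0.40 TPM in A. argotaenia. Its partner TRINITY_DN49223_c1 stood at 53.7, 47.7 and 51.5 TPM in T. grandis, against 2311, 2307 and 2683 TPM in P. chienii and 38.9, 47 and 51.1 TPM in A. argotaenia. The partner was thus present in all 9 libraries and by far highest in P. chienii.

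The other 2 named partners had their highest mean in T. grandis and were above 20 TPM in all 9 libraries. TRINITY_DN50217_c1 stood at 1329, 1039 and 1632 TPM in T. grandis, against 242, 259 and 323 TPM in P. chienii and 145, 130.2 and 172 TPM in A. argotaenia, beside the member TRINITY_DN50217_c0 at 497 ± 35.7 TPM in T. grandis (SD, n = 3). TRINITY_DN52159_c1 stood at 1737, 1026 and 633 TPM in T. grandis, against 20.2, 81.5 and 85.9 TPM in P. chienii and 817, 815 and 1345 TPM in A. argotaenia, and the member TRINITY_DN52159_c0 at 614, 322 and 301 TPM in T. grandis. Member and partner had the same order of T. grandis libraries in the second pair, highest in replicate 1 and lowest in replicate 3. In the first pair the orders differed. The A. argotaenia libraries of TRINITY_DN52159_c1 lay within its T. grandis range.

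Summed over all components with a DN number, 37 of the 69 members stayed under 2% of the T. grandis level in both other species, and 29 of these 37 have no partner. In 20 members the sum in P. chienii or A. argotaenia exceeded 10% of that in T. grandis, in 8 it exceeded 50%, and in 3 it was higher than in T. grandis. For TRINITY_DN49223 the sums were 285 TPM for T. grandis, 2435 TPM for P. chienii and 46 TPM for A. argotaenia. For TRINITY_DN49239 they were 705 TPM for T. grandis, 899.9 TPM for P. chienii and 332 TPM for A. argotaenia, and for TRINITY_DN51702 309 TPM for T. grandis, 296 TPM for P. chienii and 499.5 TPM for A. argotaenia. TRINITY_DN40080 kept its highest sum in T. grandis, where P. chienii reached 4.37% of it, with sums of 4524 TPM for T. grandis, 198 TPM for P. chienii and 37.3 TPM for A. argotaenia. The 2 DN numbers TRINITY_DN49239 and TRINITY_DN51702 were named after their values were seen.

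**Figure D5:**
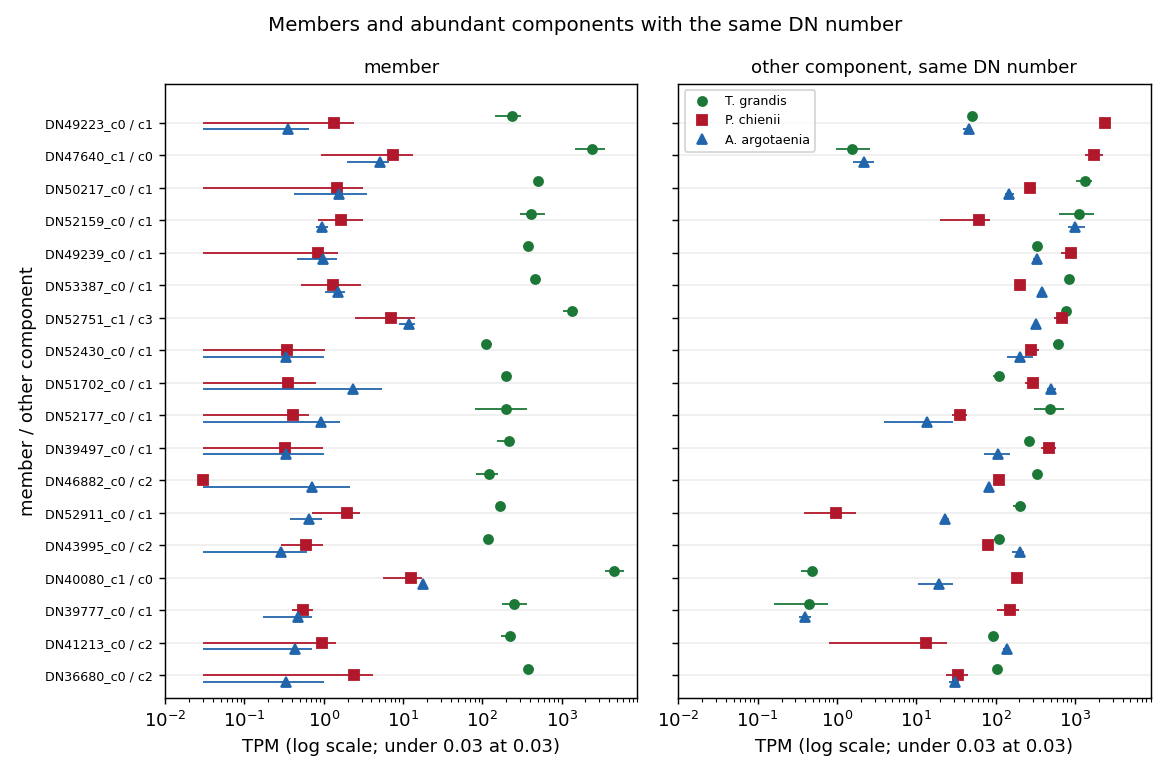
Members (left) and the 18 components with the same DN number that reached 100 TPM in a species (right), with points at species means and lines over the range of 3 libraries, in TPM on log scales. T. grandis lies far right of the other species in every left-hand row, while on the right all 3 species are at 10 TPM or more in 14 of the 18 rows.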

How the data were processed

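Gene-level TPM was measured by RNA-seq in 9 libraries, 3 for each species, per the labels with Trizol extraction and standard Illumina library preparation. The authors deposited 1 table of TPM per library. No header names the unit, which was taken from the column sums of 999890 to 999947 in the 9 libraries. Trinity appears in the labels and in the feature names. The assembly input, quantifier, versions and filters are not given in the sources used, and reads of one tree could be counted at contigs of another.

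TPM was summed over each component, and members were found by a mean of at least 100 TPM in T. grandis and under 2% of it in each other species. The members, the named components and the settings were chosen with earlier results of these data known. P. chienii was compared with A. argotaenia on log2(TPM + 1) by limma (version 3.58.1, R version 4.3.3), letting the prior variance follow the mean level. The fit held all 9 libraries with species as the only term, on 39423 components that reached 1 TPM in 3 or more libraries. Tests were two-sided with Benjamini-Hochberg adjustment over all of them. Fold changes on this scale understate the change of low components. The step was tested on simulated data. The changes simulated there were large and in components of higher level than most members have outside T. grandis. That test thus does not cover changes at a few TPM. T. grandis against the others was not tested, because those values chose the members. Descriptions used Python 3.11.15, pandas 2.3.3 and numpy 2.4.6, and figures matplotlib 3.10.9.

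Components were named by rule: the 12 highest members, the 4 largest calls in each direction, the 3 nearest to each limit, the 3 highest and 3 lowest coefficients of variation, the 4 highest members with another leading feature elsewhere, the 4 highest components sharing a DN number and the 4 highest second features, with ties by name. Alternatives were other pseudocounts, filters, scalings and limits, no trend, fewer libraries, the replicate number as a block, single features and other membership limits. Added after seeing the data were sums over DN numbers, members without those whose lowest T. grandis library was under 10% of the highest, and leaving out the 3 libraries that stood apart. No gene list was tested, because the feature names carry no gene names.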

Additional observations from a re-analysis of the deposited data

How the results depend on the processing

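The number of members was 123 at a limit of 50 TPM, 314 as single features and 38 as sums over a DN number, of which 37 hold a member. It was 52 at a limit of 1% and 96 at 5%, 47 at 200 TPM and 70 with species medians, of which 64 were members. Leaving out 1 replicate number of every species gave 63 to 70, and leaving out 1 T. grandis library 67 to 68.

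Against the 10 members changed between P. chienii and A. argotaenia (3 higher and 7 lower in P. chienii), a pseudocount of 5 left 2 (0 higher, 2 lower), only the libraries of both species 6 (1 higher), at least 4-fold 1 (0 higher, 1 lower) and single leading features 4 (1 higher, 3 lower). Of all features tested, 47535 of 75926 changed in the single-feature setting. A pseudocount of 0.1 gave 13 with 5 higher, and without the 3 libraries that stood apart there were 13, with 6 higher and 7 lower. Leaving out 1 library gave 8 to 13, with 1 to 5 higher and 5 to 12 lower. All components changed numbered 21186 of 39423 tested in the main fit, and 10729 of 19981 tested when only means of 5 TPM or more were kept. Of the 39423, 13960 changed for a pseudocount of 5 and 13946 at 4-fold. With 1 library left out there were 20518 to 21359, and 21549 without the 3 libraries that stood apart. The cause of these differences was not tested. Of the 10 members, none changed sign in the 22 alternatives tried for each as a whole component. The single-feature setting is not among these 22. In TRINITY_DN34447_c0, TRINITY_DN38106_c0 and TRINITY_DN38119_c3 the leading T. grandis feature had its higher mean in P. chienii, opposite to the component. TRINITY_DN42270_c0 lost its call in 16 of the 22 and TRINITY_DN52519_c0 in 13, with adjusted p up to 0.142 and 0.199 by limma.

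The replicate numbers pair no samples in the labels. Deviations of same-numbered P. chienii and A. argotaenia libraries correlated at -0.234, -0.305 and 0.161. Of these libraries only P. chienii replicate 3 correlated best with its own number. With the replicate block 8 members changed (1 higher and 7 lower) and 21056 components.

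The median A. argotaenia level was 0.249% of the T. grandis mean for members at a limit of 1%. The median coefficient of variation ranged from 12.3% to 19.3% with 1 T. grandis library left out, and was 14.9% without replicate 1. Trimmed-mean scaling and quantile normalization each gave 10 changed members. TPM keeps no depth, so how far counting error limits the levels of a few TPM outside T. grandis is unknown.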
